A study of Homo sapiens with 3 samples.

Results

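MFF, DNM1L and OPA1 encode core parts of the machinery that divides and fuses mitochondria. Their skipped exons are described here in reprogramming BJ cells, a human foreskin fibroblast line. The members were all events that the authors' 2 deposited exon-skipping tables list under these 3 gene symbols. They covered 18 of the 39434 exons in the tables: 11 of MFF (ENSG00000168958), 2 of DNM1L (ENSG00000087470) and 5 of OPA1 (ENSG00000198836). RNA came from cells on day 8 after induction of virally delivered OCT4, SOX2, KLF4 and MYC (OSKM), which all groups carried. Per the labels, 1 library came from cells with SMAD3 siRNA, 1 from cells with SFRS11 siRNA and 1 from cells with non-targeting siRNA. SMAD3 is a transcription factor of TGF-beta signalling, and SFRS11 (now SRSF11) is an SR-related splicing protein. Both siRNA targets were labelled as knock-downs, and the non-targeting library as wild type.

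The tables compare the libraries coded RS3 and RS2 with the same other library, called the comparator here. No label ties any of these codes to an siRNA, so the codes are kept and no knockdown is assigned to them. Each value is a difference in inclusion level, the share of transcripts over a region that keep an exon, as RS3 or RS2 minus the comparator. It runs from -1 to 1, and a negative value is read as lower inclusion of the exon in RS3 or RS2. This reading takes the first of the 2 levels subtracted to be that of RS3 or RS2, which each comparison names first. An event was called at an authors' deposited FDR under 0.05 with an absolute difference of at least 0.1. With 1 library per group there was no replicate, so the deposited FDR compares 2 libraries and not 2 conditions. The genes were chosen with results of these tables known, so their counts and values describe these libraries and test nothing.

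Mitochondria divide when the dynamin-related GTPase encoded by DNM1L (DRP1) assembles on their surface and constricts them. MFF is an outer membrane protein that recruits DRP1 there. OPA1 is a dynamin-related GTPase of the inner membrane that fuses inner membranes and shapes cristae. All 3 genes are known to make several protein isoforms through cassette exons. In DNM1L some of these lie in the variable domain of the protein, and in OPA1 some lie in the stretch that proteases cut.

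The largest differences fell on 3 MFF exons that follow each other in the annotated transcript MFF-204, and the called DNM1L exon has an alternative exon as its neighbour in the transcript DNM1L-205. The sequences of these 5 exons are shown for reference, and no difference reported here was computed from them. They come from the plus-strand transcripts of GENCODE release 29 (GRCh38), written 5′ to 3′, in which no other exon of the same gene has the same length. Capitals mark the skipped exon and lower case the 10 bases of each neighbouring exon in that transcript. The neighbours used in the deposited events are not known.
MFF 75-base exon: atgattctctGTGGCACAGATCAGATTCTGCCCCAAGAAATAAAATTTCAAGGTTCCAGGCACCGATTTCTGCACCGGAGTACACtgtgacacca
MFF 159-base exon: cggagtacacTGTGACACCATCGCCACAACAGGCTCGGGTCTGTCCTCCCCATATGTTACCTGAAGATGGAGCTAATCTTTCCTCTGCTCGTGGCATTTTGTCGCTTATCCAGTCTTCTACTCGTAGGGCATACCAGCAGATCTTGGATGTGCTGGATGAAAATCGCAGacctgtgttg
MFF 60-base exon: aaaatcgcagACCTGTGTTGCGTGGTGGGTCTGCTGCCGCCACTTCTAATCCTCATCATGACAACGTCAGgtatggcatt
DNM1L 78-base exon: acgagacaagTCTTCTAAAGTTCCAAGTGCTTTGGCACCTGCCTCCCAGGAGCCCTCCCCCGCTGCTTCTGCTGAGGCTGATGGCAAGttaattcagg
DNM1L 33-base exon: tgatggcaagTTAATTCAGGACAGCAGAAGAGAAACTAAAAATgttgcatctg

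All 5 lengths are multiples of 3. The MFF exons add 25, 53 and 20 codons and the DNM1L exons 26 and 11 codons, with 0 stop codons in the annotated frame. G and C made up 48.0%, 50.3% and 55.0% of the 75-, 159- and 60-base MFF exons. They made up 59.0% of the 78-base DNM1L exon and 30.3% of the 33-base one. Of 11 annotated coding MFF transcripts that span the 3 exons, 1 holds all of them, 1 holds the 159- and 60-base exons, 2 hold the 60-base, 2 the 159-base and 2 the 75-base exon alone, and 3 hold none.

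In RS3, inclusion of MFF exons was lower than in the comparator in some events by more than 0.6, and 2 events were called. The 60-base exon (hg19 chromosome 2, 228217230 to 228217289, plus strand) had the largest difference of all members. Its 3 RS3 events in the authors' deposited table were -0.706 (FDR 5.65e-07), -0.308 (FDR 0.32) and -0.052 (FDR 1). All 3 lay below the comparator, and the first alone passed both limits. The authors' deposited table has 1 RS2 event of the exon, with a difference of -0.017 (FDR 1).

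The 159-base exon just before it (228211942 to 228212100) had a called RS3 event of -0.604 (FDR 0.000123) in the authors' deposited table. The other RS3 events of this exon in the authors' deposited table were -0.181 (FDR 0.655), 0.022 (FDR 1) and 0.034 (FDR 1). Events of the same exon thus lay on both sides of the comparator, and those above it were small. Its 3 RS2 events in the authors' deposited table were -0.081, -0.056 and 0.039, each with an FDR of 1. Which RS3 event matches which RS2 event cannot be read from the columns used here, since these name no flanking exons.

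The 75-base exon (228207461 to 228207535) had a similarly low event that missed the FDR threshold. In RS3 its events in the authors' deposited table were -0.670 (FDR 0.0948), 0 (FDR 1) and 0.096 (FDR 1). In RS2 they were -0.263, -0.037 and 0 in the authors' deposited table, all with an FDR of 1. This exon therefore had no called event, and its lowest RS3 value was larger in size than that of the called 159-base exon. Among the members, the RS3 event nearest to the FDR threshold on the called side was that of DNM1L at 0.0236, and this MFF event at 0.0948 was nearest on the other side, in the authors' deposited table.

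**Figure D1:**
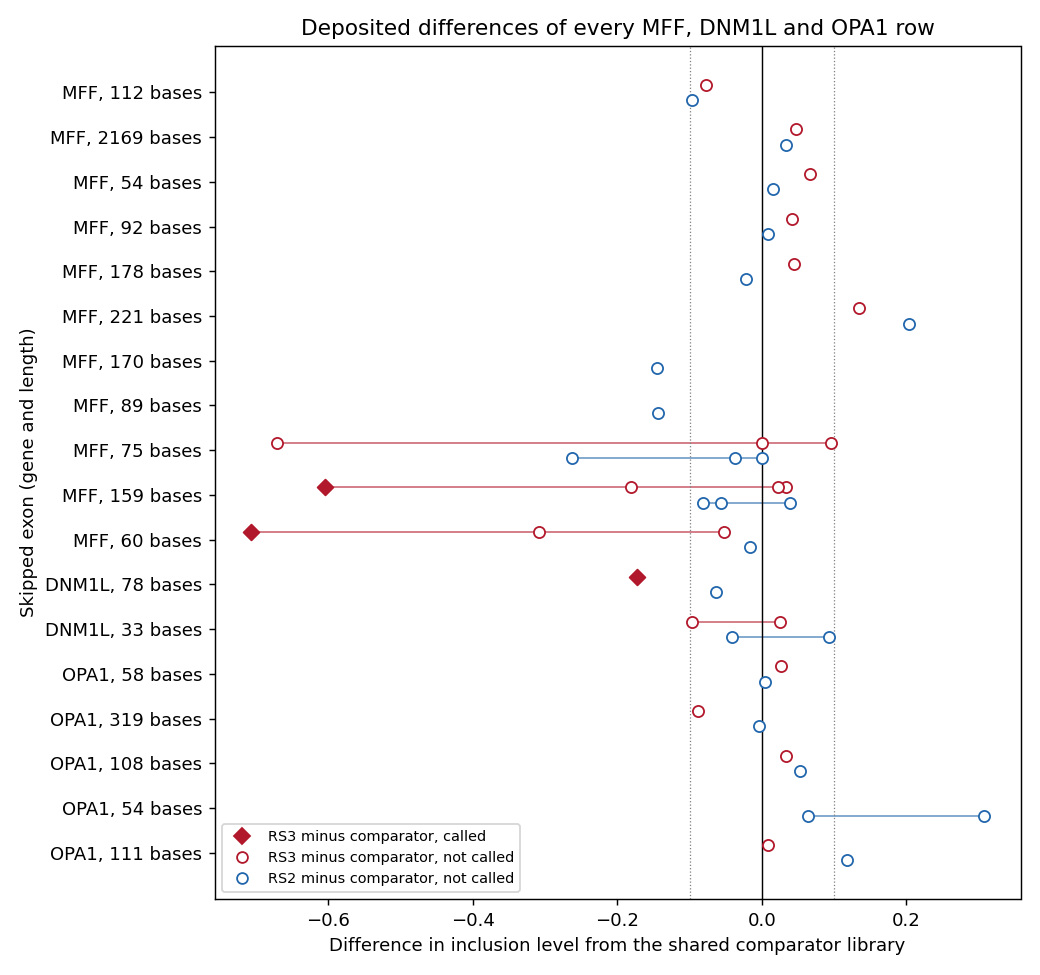
Deposited differences in inclusion level from the comparator library (horizontal axis, no unit) for every event of the 18 exons, in order along each gene, with RS3 above RS2. Each point is 1 event, lines join events of the same exon, filled diamonds are called events and dotted lines mark differences of 0.1. The 3 called events are all in RS3 and all below 0, and the MFF exons of 75, 159 and 60 bases have RS3 events both near 0 and below -0.6.

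The called MFF events were large among the calls of the RS3 table. Of its 313 called events with lower inclusion, that of the 60-base exon ranked 4th and that of the 159-base exon ranked 8th by size. The DNM1L event ranked 193rd in the same order. These ranks come from the values that brought the genes to attention.

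The remaining MFF exons lie towards the start of the gene, and none was called. The 221-base exon (228195342 to 228195562), which is coding in part in 7 annotated transcripts and in full in 1, was 0.134 in RS3 (FDR 0.518) and 0.204 in RS2 (FDR 0.399) in the authors' deposited table. The 112-base exon (228193394 to 228193505) was -0.077 in RS3 (FDR 0.41) and -0.097 in RS2 (FDR 0.418) in the authors' deposited table. It is annotated in 11 coding transcripts of MFF and lies outside the coding sequence in all of them. RS3 and RS2 were thus on the same side of the comparator for each of these exons, but both comparisons use that library. A form of 2169 bases, which runs from the start of the 112-base exon to the end of the 221-base one, was 0.047 in RS3 and 0.034 in RS2 in the authors' deposited table. GENCODE holds that form in 1 transcript, which is not annotated as protein-coding.

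A further MFF exon had 3 listed ends from the same start at 228194322, giving lengths of 54, 92 and 178 bases. In RS3 these forms were 0.066, 0.041 and 0.044 in the authors' deposited table. In RS2 they were 0.016, 0.009 and -0.022 in the authors' deposited table, all with an FDR of 1. Each of the 6 values was under 0.1 in size. The coding exons of 170 bases (228197135 to 228197304) and 89 bases (228205008 to 228205096) were listed in the RS2 table only, at -0.145 and -0.143 in the authors' deposited table, both with an FDR of 1. No RS3 value was analysed for either exon.

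DNM1L had 1 called event. Its 78-base exon (hg19 chromosome 12, 32890799 to 32890876, plus strand) differed by -0.172 in RS3 (FDR 0.0236) in the authors' deposited table. In RS2 the same exon differed by -0.063 (FDR 1) in the authors' deposited table. The exon had a single event in each table, and both values were below the comparator. The difference between RS3 and RS2 was not tested.

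The 33-base exon next to it (32891198 to 32891230) had events of both signs in each table. In RS3 they were -0.097 (FDR 0.972) and 0.025 (FDR 1) in the authors' deposited table. In RS2 they were 0.093 and -0.041 in the authors' deposited table, both with an FDR of 1. No event of this exon reached a size of 0.1. Of 8 annotated coding DNM1L transcripts that span both exons, 3 hold both, 2 hold the 78-base exon alone, 1 holds the 33-base exon alone and 2 hold neither.

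OPA1 had no called event in RS3 or RS2. Its 4 RS3 events ranged over -0.088 to 0.034 in the authors' deposited table, with FDR values of 0.99 or 1. The value of -0.088 was that of a 319-base exon (hg19 chromosome 3, 193332512 to 193332830, plus strand), the only listed OPA1 exon whose length is not a multiple of 3 and which is coding. In RS2 that exon was at -0.004 in the authors' deposited table. The 58-base exon near the start of the gene (193321289 to 193321346) lies outside the coding sequence in its 2 annotated coding transcripts, and was 0.027 in RS3 and 0.004 in RS2 in the authors' deposited table.

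The other coding exons of OPA1 all had an FDR of 1. The 54-base exon (193335573 to 193335626) was listed in RS2 only, in events of 0.307 and 0.064 in the authors' deposited table. The 111-base exon (193343881 to 193343991) was 0.009 in RS3 and 0.118 in RS2 in the authors' deposited table. The 108-base exon (193334967 to 193335074) was 0.034 in RS3 and 0.053 in RS2 in the authors' deposited table. How many reads stand behind a value such as 0.307 is not known.

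In all, 3 of the 23 RS3 events of the members were called (13.0%), all with lower inclusion. Over all RS3 events, 0.967% of 42518 were called, 0.736% with lower and 0.23% with higher inclusion. The median RS3 difference of the members was 0.009, against -0.001 for all events of the table. Of the 23 events, 10 were negative, 12 positive and 1 was 0. In RS2, 0 of 24 member events were called, where 0.0712% of 40702 events were called in the whole table, 0.0442% lower and 0.027% higher. At the stricter limits of an FDR under 0.01 and 0.2 in size, 2 RS3 and 0 RS2 events of the members were called, against 0.289% and 0.0172% of all RS3 and RS2 events. The deposited p-value, before adjustment, was under 0.05 for 7 of the 23 RS3 events, where 7.61% of all RS3 events had such a value. In RS2 it was under 0.05 for 2 of the 24 events, those of the 221-base and 112-base MFF exons, where 4.52% of all RS2 events had such a value. The median RS2 difference was -0.002 for the members and 0 for all events. Differences of at least 0.1 in size were listed for 7 of the 23 RS3 events and 6 of the 24 RS2 events, and for 21.2% and 19.2% of all events in RS3 and RS2.

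Events of the same exon did not always give the same value. In RS3, 4 member exons were listed in several events, and the largest and smallest difference lay 0.766 apart for the 75-base, 0.654 for the 60-base and 0.638 for the 159-base MFF exon. For the 33-base DNM1L exon they lay 0.122 apart. Of these 4 exons, 3 had events of both signs, the 60-base MFF exon being the exception. Over all 5724 exons with several RS3 events, 46.5% had both signs, the median spread was 0.045, and 382 (6.67%) had a spread of at least 0.5. Of the 168 such exons with a called event, 65 (38.7%) had both signs and 6 (3.57%) had every event called. Their median spread was larger, at 0.173, and 9 (5.36%) had a spread of at least 0.5. In RS2 the spread was 0.263 for the 75-base and 0.120 for the 159-base MFF exon, 0.134 for the 33-base DNM1L exon and 0.243 for the 54-base OPA1 exon, against a median of 0.048 over 5354 exons. Both signs occurred in 2 of these 4 exons in RS2, the 159-base MFF and the 33-base DNM1L exon, and in 49.6% of the 5354 exons. Events of 1 exon may share reads and are not replicates. The spread and the share with both signs can grow with the number of events per exon. That number was 3 for the 75-base, 4 for the 159-base and 3 for the 60-base MFF exon in RS3. It was not matched in the values over all exons.

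**Figure D2:**
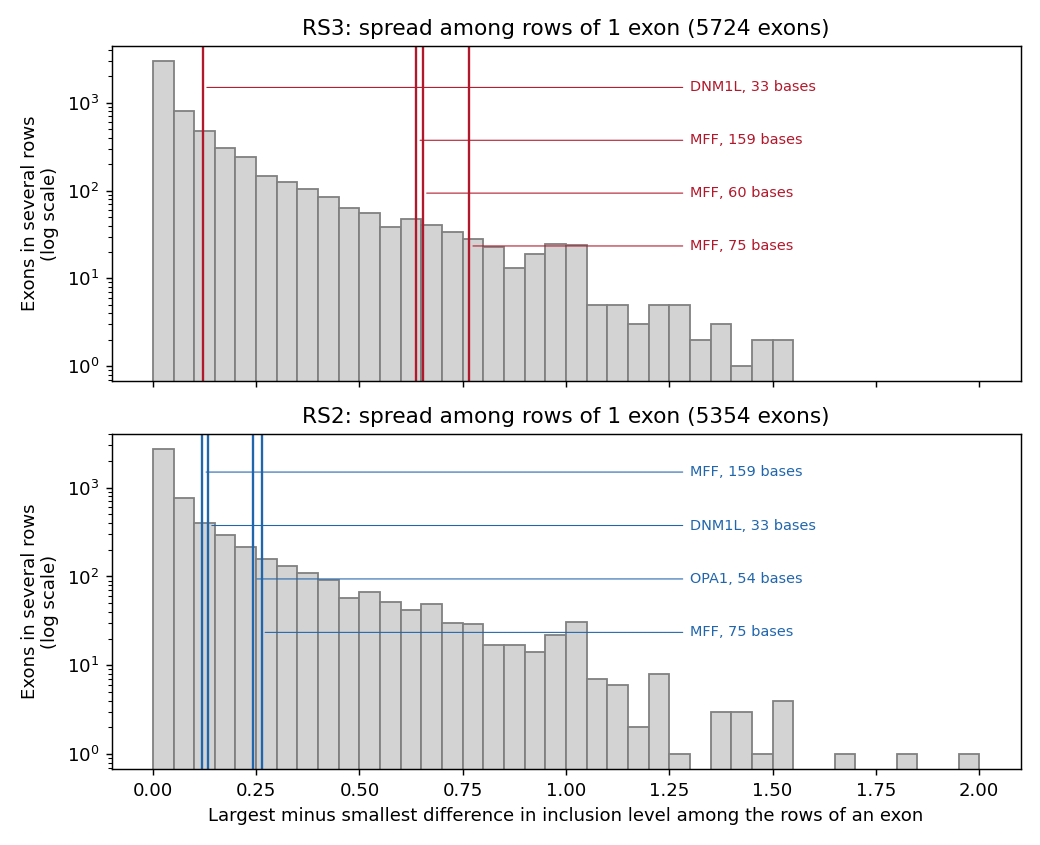
Spread among events of the same exon, as the largest minus the smallest deposited difference in inclusion level (horizontal axis), for all exons with several events in RS3 (top) and RS2 (bottom); the vertical axis counts exons on a log scale and coloured lines mark the exons of MFF, DNM1L and OPA1. The 3 MFF exons lie between 0.638 and 0.766 in RS3, where the median is 0.045 over all exons shown and 0.173 over those with a called event. The number of events per exon was not matched.

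GENCODE places these exons between several pairs of neighbours. The 75- and 159-base MFF exons each have 3 annotated pairs of flanking exons and the 60-base exon has 2, and each DNM1L exon has 2. Of the 18 member exons, 10 (55.6%) have a length divisible by 3, as do 41.1% of all exons in the tables. The 10 include each exon with a called event and the 75-base MFF exon. They also include the 2169- and 54-base MFF forms, which are not coding in any annotated protein-coding transcript. For those forms the length says nothing about frame. Overlapping forms were counted as separate exons.

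Other genes of mitochondrial fission, fusion, cristae and transport were counted from a list of 37 genes chosen by function. In RS3, 29 of them had listed events and 1 (3.45%) had a called event, with lower inclusion, against 3.05% of all genes in that table. In RS2, 26 had listed events and 1 (3.85%) had a called event, with higher inclusion, against 0.238% of all genes. The median difference over the list's events was 0 in both tables. Among fission genes 10 were listed in each table, and they held both calls. Of the fusion genes 10 were listed in RS3 and 9 in RS2, of the cristae genes 5 and 4, and of the transport adaptors 4 and 3, and 0 of these were called.

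The gene called in RS3 was DNM2, a dynamin best known for cutting endocytic vesicles from the membrane. Its 12-base exon (chromosome 19, 10919245 to 10919256) was -0.341 in RS3 (FDR 8.16e-09) and -0.028 in RS2 (FDR 1) in the authors' deposited table. The gene called in RS2 was INF2, a formin that drives actin assembly where the endoplasmic reticulum meets mitochondria. Its 57-base exon (chromosome 14, 105181621 to 105181677) was 0.103 (FDR 0.00316) and -0.016 (FDR 1) in 2 RS2 events in the authors' deposited table. In RS3 its 2 events were 0.056 (FDR 0.29) and -0.036 (FDR 1) in the authors' deposited table, so that its events had both signs in each table.

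The largest differences in this list were not called. An exon of OMA1, a protease that cuts OPA1 under stress, was 0.843 in RS3 (FDR 0.726) and 0.475 in RS2 (FDR 1) in the authors' deposited table. An exon of RHOT1, which links mitochondria to motor proteins, was -1 in RS3 (FDR 0.805) in the authors' deposited table. The 69-base exon of TBC1D15, a Rab GTPase-activating protein that binds the mitochondrial protein FIS1, had RS3 events of -1 and -0.016 and an RS2 event of -0.016 in the authors' deposited table, all with an FDR of 1. Its 127-base exon was 0.400 in RS2 (FDR 1) in the authors' deposited table. An exon of CHCHD6, a cristae protein, was 0 in RS3 and 1 in RS2, both with an FDR of 1 in the authors' deposited table. Differences as large as 1 in size were thus listed without a call.

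The pair of differences of the 60-base MFF exon, using its called RS3 event, was set beside those of 217 exons of other genes that were called in RS3 and had a single event in each table. The nearest were 2 overlapping exons of MTO1, a mitochondrial tRNA-modifying enzyme, of 75 and 50 bases. They were -0.753 and -0.781 in RS3, and 0.054 and 0.043 in RS2, in the authors' deposited table. The straight-line distances from MFF were 0.0851 and 0.096. A 178-base exon of DPCD came next at a distance of 0.123, with -0.594 in RS3 and -0.067 in RS2 in the authors' deposited table. Its RS3 FDR of 0.0486 was just inside the limit. This likeness rests on 2 values per exon that share the comparator library. It also rests on the lowest of the 3 RS3 events of the MFF exon, the others being -0.308 and -0.052. In RS2 the MFF exon, at -0.017, lay below the comparator and the MTO1 exons lay above it.

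The tables hold splicing and no expression level, so they cannot show how much MFF, DNM1L or OPA1 RNA each library had, nor check the cell type by marker levels. Events were listed for 7 of 7 fibroblast marker genes in both tables, for 2 of 4 epithelial markers in RS3 and 1 of 4 in RS2, and for 3 of 3 neural markers in both. None of the fibroblast or epithelial markers had a called event in either table. Of the neural markers, MAP2 had 2 called events in RS3, where 411 events were called in all. TUBB3 and NCAM1 had listed events without a call, and 0 neural markers were called in RS2. Over all genes, 3.05% had a called event in RS3 and 0.238% in RS2. Whether other cells had a part in the MFF and DNM1L events was not tested.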

How the data were processed

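RNA of 3 libraries, 1 per group, was made into TruSeq libraries after mRNA selection, per the labels' protocols. The submitters' processing notes name hg19, STAR and FastQC without versions, and the sources used here do not name the event caller. Per the file headers, each event of the authors' 2 tables has a deposited difference in inclusion level (a score from -1 to 1), a p-value and an FDR. The 4 columns of inclusion level per library were not used, because no label ties them to a sample. They were seen once, when the sign was read as first minus second level, and entered no result. The first level was taken to be that of RS3 or RS2, which each comparison names first.

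Members, lists, tests and alternatives were chosen with earlier results of these data known. Calls needed an FDR under 0.05 and an absolute difference of at least 0.1; no test of conditions was possible. Exons were matched between tables on gene, strand, start and end, counted from 1. All events of the members were accounted for. Those called or at least 0.1 in size are given singly, list genes when called or among the 3 largest differences of a table, and the 3 exons nearest to MFF in both differences.

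Member exons were found in GENCODE 29 (GRCh38) by gene, strand, length and spacing within the gene, with no coordinate carried over: 11 of 11 in MFF, 2 of 2 in DNM1L and 5 of 5 in OPA1. All 37 list genes were matched by Ensembl identifier. The adjustment of p-values was checked on simulated data. Python 3.11.15, pandas 2.3.3 and matplotlib 3.10.9 were used. Depth per library is unknown, so no interval is given.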

Additional observations from a re-analysis of the deposited data

How the results depend on the processing

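The count of called member events was 3 in RS3 and 0 in RS2. It was 2 in RS3 at an FDR limit of 0.01 with 0.2 as the smallest difference, where the DNM1L event was lost, and 0 in RS2. With the deposited p-values adjusted again by Benjamini-Hochberg, the counts were again 3 and 0. They were also 3 and 0 with no minimum difference, a change that cannot lower a count. With 1 event per exon they were 3 and 0 too. The event kept was that with the smallest p-value, so each called member event stayed in and this count could not fall. The list's count of 1 gene in RS3 became 2 with no minimum difference, as MTFR1L entered, and its count of 1 in RS2 became 0 at the stricter thresholds. Which event stands for an exon mattered more. With the largest in place of the smallest p-value, the 159-base MFF exon was 0.022 instead of -0.604 in RS3. The 33-base DNM1L exon was then 0.025 instead of -0.097 in RS3, and -0.041 instead of 0.093 in RS2. The 60-base MFF exon was -0.052 with the largest p-value and -0.308 at the median event, neither of them called, and the 75-base MFF exon was 0 under both in RS3. The 159-base MFF exon has 4 RS3 events, so no single event is the median. Its median of -0.0795 in RS3 is the mean of the middle events, -0.181 and 0.022, which differ in sign. These differences between events follow from which event was taken, and their cause was not tested. No library could be left out, as each group has 1. No paired analysis was possible because each group has 1 library and the tables give no replicate numbers.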
